A study of Sus scrofa with 6 samples.

Results

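Interferon-stimulated genes are described here in the longissimus dorsi (LD) muscle of 6 Laiwu pigs that differed in intramuscular fat (IMF). The genes were listed by name as ISG15, MX1, IFIT1, IFIT2, IFIT3, OASL, RSAD2, IRF7 and IRF1, by a rule that uses names and no threshold on the values. Of these 9 genes, 8 carried their symbol in the deposited table of 31908 annotated genes, as 21 transcripts, and 7 reached the minimum mean of 0.1 FPKM (fragments per kilobase of transcript, scaled to the fragments of the library) set for testing. OASL was below that minimum. No row bore the name IFIT3, although rows of the IFIT1 identifier lay at its position, as described further on.

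Laiwu is a pig breed. Each library was made from total RNA of the LD muscle of 1 castrated male, after removal of ribosomal RNA and with the strand kept. The S-H group held the 3 pigs of extremely high IMF, LW63, LW70 and LW119, and the S-L group held the 3 pigs of extremely low IMF, LW82, LW88 and LW90. The pigs carried no treatment or transgene, and the age of each animal and its health at slaughter are not given in the sources used here. The animals were picked from a larger herd by IMF, with sex and carcass weight also considered, so the groups differ in muscle fat by design.

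Interferons are secreted proteins that cells release on sensing viral or other misplaced nucleic acid. Type I and type III interferons act through JAK1 and TYK2 to bring STAT2 and IRF9 to response elements of their target genes, and interferon gamma acts through JAK1 and JAK2 and raises IRF1. The products of these target genes, the interferon-stimulated genes, block steps of viral replication, and many of them are also expressed at a low level in tissue that is not infected.

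All values are sums over the transcripts of a gene, in FPKM, and a fold change is the S-H mean minus the S-L mean of log2(FPKM + 0.1), which understates the change of genes with low values. Differences were tested with limma over the 12837 protein-coding genes that had a mean of at least 0.1 FPKM, and a gene passed at an unadjusted p below 0.01 with a log2 fold change of 1 or more in size. The deposited values carry no read counts, so the number of reads behind each one is unknown and precision rests on the spread between the 3 pigs of a group. Values were not centred between libraries in the deposited table, and over all tested genes the log2 fold change had a median of 0.21, so a fold change of that size lies at the middle of the table. Division by median-ratio size factors, which ranged from 0.807 in LW90 to 1.15 in LW119, brought this median to 0.01. Of all tested genes, 175 (1.36%) passed, 1049 (8.17%) had an unadjusted p below 0.05, and 0 had a limma adjusted p below 0.05. The 3 S-H values lay above all 3 S-L values for 1683 genes (13.1%) and below them for 218 (1.7%), and with size factors these counts were 763 and 843. The skeletal muscle markers ACTA1, CKM, DES, TNNT3 and MYH7 were at 189.8 FPKM or more in each pig, as the tissue label requires.

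The interferon-stimulated genes did not pass in either direction (0 of 7). IFIT1 and IFIT2, which encode RNA-binding antiviral proteins, had higher values in each S-H pig than in any S-L pig. IRF1, a transcription factor induced by interferon gamma, was higher in S-H on average with overlapping groups. ISG15, RSAD2, IRF7 and MX1 overlapped between the groups, and the first 3 of these had their highest value in the S-L pig LW88. The unadjusted p was below 0.05 for 2 of 7 genes, against 8.17% of all tested genes. The log2 fold change was positive for 7 of 7, against 9517 of 12837 tested genes, and its median was 0.41 against 0.21. With size factors, the log2 fold change was positive for 5 of 7, against 6497 of 12823 tested genes, since MX1 and RSAD2 fell below 0. The median over the 7 genes was then 0.22, 0 of 7 had an unadjusted p below 0.05, and no gene had groups without overlap.

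**Figure D1:**
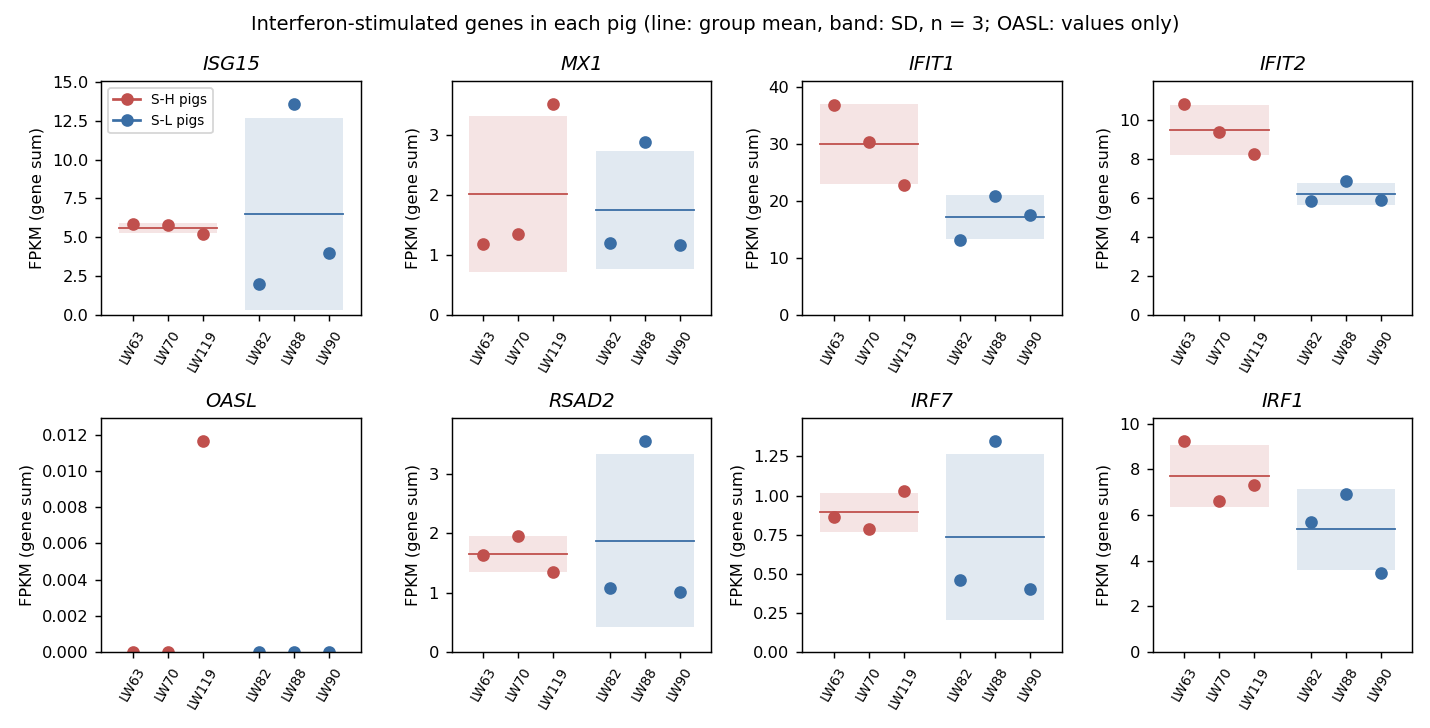
Gene sums in FPKM (vertical axes, from 0) in each of the 6 pigs (horizontal axes) for the 8 genes found by name, with S-H pigs in red and S-L pigs in blue, the line at the group mean and the band at 1 SD (n = 3; OASL shows values only). IFIT1 and IFIT2 have no overlap between the groups, and LW88 lies above the other S-L pigs in each of the 7 tested genes.

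The IFIT genes encode proteins with tetratricopeptide repeats that recognise viral RNA and restrain its translation. They lie side by side on chromosome 14 of the Sscrofa11.1 assembly. IFIT1 (ENSSSCG00000010452, chr14:101214710-101249501) had the highest level of the listed genes. Its FPKM was 36.9 in LW63, 30.4 in LW70 and 22.9 in LW119, and 13.3 in LW82, 21.0 in LW88 and 17.6 in LW90. The groups did not overlap, and the gap between the lowest S-H pig (LW119) and the highest S-L pig (LW88) was small beside the range within S-H. The mean was 30.1 ± 6.96 FPKM in S-H and 17.3 ± 3.87 in S-L (SD, n = 3 each). Between the groups this was a log2 fold change of 0.79 with an SE of 0.27 and a 95% interval from 0.18 to 1.40, which is 0.58 above the median of all genes. The unadjusted p was 0.0159 and the limma adjusted p 0.577, and the exact two-sided permutation test gave 0.10, the smallest p that 3 pigs against 3 allow.

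IFIT2 (ENSSSCG00000010451, chr14:101185589-101204292) binds RNA as a dimer or with its relatives. Its FPKM was 10.8 in LW63, 9.38 in LW70 and 8.25 in LW119, and 5.84 in LW82, 6.84 in LW88 and 5.91 in LW90. The groups again did not overlap, and the S-H pigs stood in the same order as for IFIT1, from LW63 to LW119. The mean was 9.47 ± 1.26 FPKM in S-H and 6.20 ± 0.558 in S-L (SD, n = 3 each), and nearly the whole of it came from the transcript IFIT2-202. The log2 fold change was 0.60 (SE 0.23, 95% interval from 0.08 to 1.12), or 0.38 above the median of all genes, with an unadjusted p of 0.0290 and a limma adjusted p of 0.591. The exact permutation p was 0.10.

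Both IFIT1 and IFIT2 depended on the scaling of the libraries. After division by size factors, IFIT1 stood at 32.5, 31.3 and 20.0 in LW63, LW70 and LW119 and at 13.1, 21.6 and 21.8 in LW82, LW88 and LW90. LW119 then lay below LW88 and LW90, and the log2 fold change was 0.57 with an unadjusted p of 0.0869. IFIT2 stood at 9.49, 9.68 and 7.19 in the S-H pigs and at 5.74, 7.05 and 7.32 in the S-L pigs, so that LW119 was below LW90, and its log2 fold change was 0.38 with an unadjusted p of 0.121. Leaving out 1 pig at a time kept the log2 fold change of IFIT1 between 0.62 and 0.97 (unadjusted p from 0.00638 without LW119 to 0.0780 without LW82) and that of IFIT2 between 0.50 and 0.69 (unadjusted p from 0.0275 without LW119 to 0.121 without LW63).

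The identifier named IFIT1 covered more than a single gene. In the RefSeq annotation of the same assembly, IFIT3 lies at chr14:101214730-101225169 and IFIT1 at chr14:101237403-101249486. The transcripts IFIT1-201 and IFIT1-204 matched the position of IFIT3, IFIT1-202 and IFIT1-203 matched that of IFIT1, and IFIT1-205 spanned both and was left out of the split. This split was made after the rows had been seen. The IFIT1 position gave 76.6% of the identifier's FPKM summed over the pigs, all of it from IFIT1-203, and the IFIT3 position gave 23.0%. IFIT3 is a partner protein that stabilises IFIT1 on RNA.

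**Figure D2:**
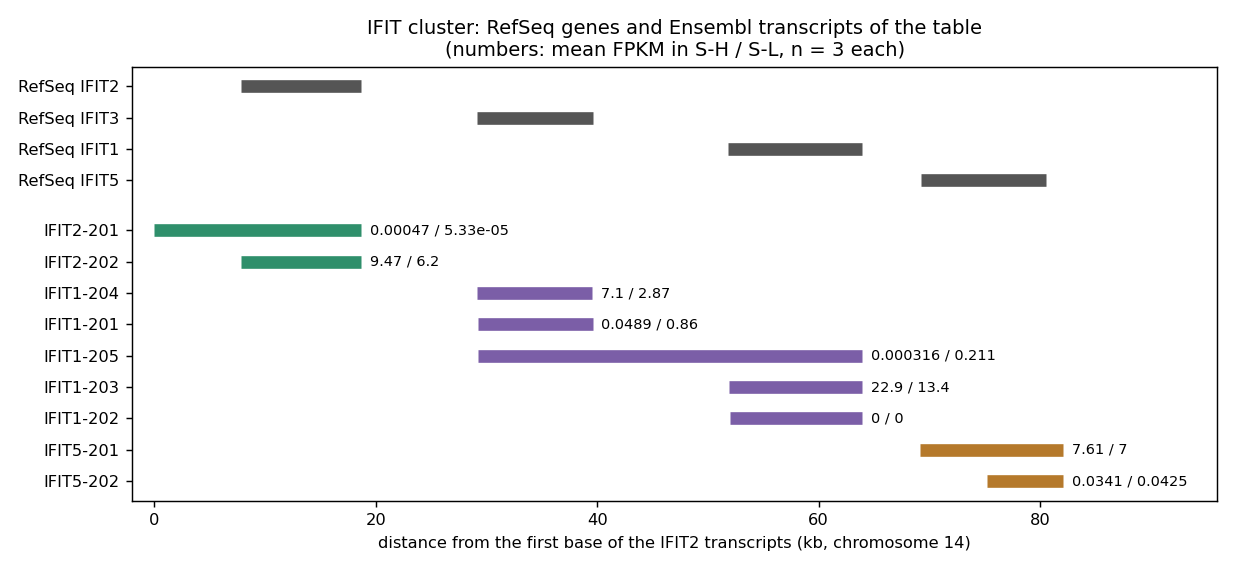
Map of the IFIT genes on chromosome 14, with the distance in kb from the first base of the IFIT2 transcripts on the horizontal axis, RefSeq genes in grey above and the table's Ensembl transcripts in colour below, each with its mean FPKM in S-H and S-L (n = 3 each). IFIT1-201 and IFIT1-204 lie under RefSeq IFIT3, and IFIT1-203 carries the highest values, 22.9 in S-H and 13.4 in S-L.

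At the IFIT1 position the FPKM was 29.5 in LW63, 21.5 in LW70 and 17.7 in LW119, and 10.04 in LW82, 15.1 in LW88 and 14.95 in LW90. The groups did not overlap. This was a log2 fold change of 0.77 (SE 0.28), with an unadjusted p of 0.0209, a limma adjusted p of 0.576 and an exact permutation p of 0.10. At the IFIT3 position the FPKM was 7.32 in LW63, 8.89 in LW70 and 5.25 in LW119, and 3.25 in LW82, 5.29 in LW88 and 2.64 in LW90. Here LW88 lay just above LW119, so the groups overlapped. Between the groups the log2 fold change was 0.95 (SE 0.32, 95% interval from 0.23 to 1.67), with an unadjusted p of 0.0152, a limma adjusted p of 0.576 and an exact permutation p of 0.20. Without LW88 it was 1.23 with an unadjusted p of 0.00411, and without LW119 it was 1.15 with an unadjusted p of 0.00768, both past the thresholds. Without LW70 it was 0.78 (unadjusted p 0.0586) and without LW90 it was 0.74 (unadjusted p 0.0599). With size factors it was 0.73 (unadjusted p 0.0484). The log2 fold change at the IFIT1 position was 0.54 with size factors (unadjusted p 0.108).

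The transcripts at the IFIT3 position differed in LW88. IFIT1-204 was at 7.24, 8.85 and 5.22 FPKM in LW63, LW70 and LW119 and at 3.14, 2.85 and 2.61 in LW82, LW88 and LW90. IFIT1-201 was at 2.44 FPKM in LW88 and at 0.108 or less in each of the other 5 pigs. The IFIT genes have similar sequences, and a RefSeq gene model of LIPA spans this stretch of chromosome 14, so reads may be shared between neighbouring genes and the split of FPKM between transcripts is uncertain. IFIT5, the remaining gene of the cluster, was at 8.48, 6.69 and 7.77 FPKM in S-H and 5.62, 9.10 and 6.41 in S-L, with overlapping groups and a log2 fold change of 0.14.

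ISG15 (ENSSSCG00000040575, chr6:63363173-63364208) encodes a small protein related to ubiquitin that is joined to other proteins and is also secreted. Its FPKM was 5.85 in LW63, 5.78 in LW70 and 5.23 in LW119, and 1.98 in LW82, 13.5 in LW88 and 4.02 in LW90. The S-H pigs were close together and lay between the S-L pigs, of which LW88 was the highest of all 6 and LW82 the lowest, a range of 6.83-fold. The mean was 5.62 ± 0.338 FPKM in S-H and 6.51 ± 6.17 in S-L (SD, n = 3 each), so the mean FPKM was lower in S-H. The log2 fold change was 0.22 (SE 0.55, 95% interval from -1.01 to 1.46), close to the median of all genes, with a limma adjusted p of 0.915, and the exact permutation p of the FPKM means was 1. Without LW88 the log2 fold change was 0.96 with an unadjusted p of 0.0223 and a limma adjusted p of 0.568, and without LW82 it was -0.39.

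RSAD2 (ENSSSCG00000008648, chr3:128877186-128897847) encodes viperin, an enzyme that makes a chain-terminating nucleotide. Its FPKM was 1.63 in LW63, 1.95 in LW70 and 1.35 in LW119, and 1.07 in LW82, 3.55 in LW88 and 1.002 in LW90. LW88 was again the highest pig, and the other S-L pigs were the lowest. The mean was 1.65 ± 0.302 FPKM in S-H and 1.87 ± 1.45 in S-L (SD, n = 3 each). For RSAD2 the log2 fold change was 0.04 (SE 0.45, 95% interval from -0.96 to 1.05), with a limma adjusted p of 0.983, and it was -0.16 with size factors. It was 0.61 without LW88 and fell below 0 without LW70 (-0.08), without LW82 (-0.21) and without LW90 (-0.26).

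MX1 (ENSSSCG00000012077, chr13:204843754-204868922) encodes a dynamin-like GTPase that traps viral nucleoproteins. Its FPKM was 1.18 in LW63, 1.36 in LW70 and 3.51 in LW119, and 1.20 in LW82, 2.88 in LW88 and 1.17 in LW90. A single pig of each group, LW119 and LW88, stood above the other 4, which lay between 1.17 and 1.36. The mean was 2.02 ± 1.30 FPKM in S-H and 1.75 ± 0.983 in S-L (SD, n = 3 each). For MX1 the log2 fold change was 0.15 (SE 0.47, 95% interval from -0.90 to 1.21), with a limma adjusted p of 0.932, and it was -0.05 with size factors. It was 0.56 without LW88, -0.31 without LW119, -0.04 without LW82 and -0.06 without LW90. Its relative MX2 showed the same high pigs, at 2.38, 3.62 and 6.44 FPKM in S-H and 2.44, 4.83 and 2.47 in S-L, and reads of such close copies may be shared between them.

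OASL (ENSSSCG00000009921, chr14:40900052-40917266) encodes a protein related to the 2′-5′ oligoadenylate synthetases. It was listed at 0 in 5 pigs and at 0.0117 FPKM in LW119, and was not tested. Of the related enzymes, OAS2 was at 0.755, 1.12 and 1.25 FPKM in S-H and 0.846, 2.01 and 0.421 in S-L, and OAS1 at 0.348, 1.20 and 0.321 in S-H and 0.205, 2.55 and 0.469 in S-L. Both had their highest value in LW88, with overlapping groups.

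IRF7 and IRF1 are transcription factors of the interferon regulatory family. IRF7 (ENSSSCG00000012853, chr2:371606-375381), which drives the interferon alpha genes, was at 0.864 FPKM in LW63, 0.788 in LW70 and 1.03 in LW119, and at 0.462 in LW82, 1.35 in LW88 and 0.402 in LW90. The S-H pigs lay between LW88 above and the other S-L pigs below. The mean was 0.894 ± 0.124 FPKM in S-H and 0.737 ± 0.530 in S-L (SD, n = 3 each). For IRF7 the log2 fold change was 0.41 (SE 0.43, 95% interval from -0.54 to 1.37), with a limma adjusted p of 0.786. Without LW88 it was 0.90 with an unadjusted p of 0.0408 and a limma adjusted p of 0.579, and without LW90 it was 0.13.

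IRF1 (ENSSSCG00000014277, chr2:134776134-134783646) was at 9.23 FPKM in LW63, 6.60 in LW70 and 7.32 in LW119, and at 5.71 in LW82, 6.93 in LW88 and 3.46 in LW90. LW88 lay above LW70, so the groups overlapped by that pair alone. The mean was 7.72 ± 1.36 FPKM in S-H and 5.37 ± 1.76 in S-L (SD, n = 3 each). The log2 fold change was 0.56 (SE 0.30, 95% interval from -0.12 to 1.24), with an unadjusted p of 0.0967, a limma adjusted p of 0.630 and an exact permutation p of 0.20. It was 0.77 without LW88 (unadjusted p 0.0403), 0.28 without LW90, and 0.34 with size factors. An assembled transcript that spans a wider stretch, chr2:134701008-134813142, made up between 2.03% and 13.99% of the IRF1 sum.

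**Figure D3:**
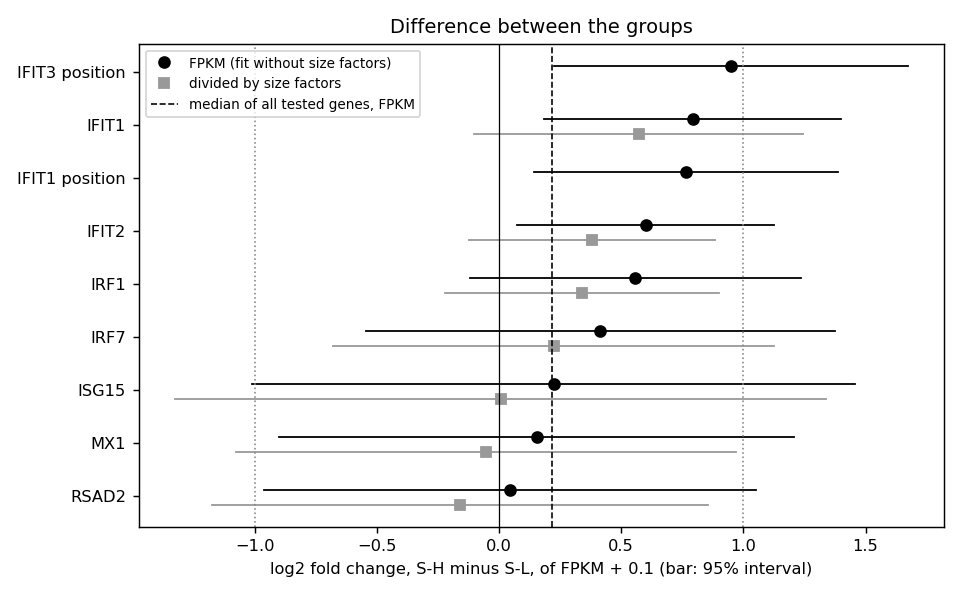
Log2 fold change of FPKM + 0.1, S-H minus S-L (horizontal axis), with 95% intervals for the 7 tested genes and for the IFIT1 and IFIT3 positions, as deposited in black and, for the 7 genes, after division by size factors in grey. The dashed line is the median of all tested genes at 0.21 and the dotted lines are the thresholds of 1; IFIT1 and IFIT2 have black intervals above 0 and grey intervals that include it.

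By mean level over the 6 pigs, the order was IFIT1 (23.7 FPKM), IFIT2 (7.83), IRF1 (6.54), ISG15 (6.07), MX1 (1.88), RSAD2 (1.76), IRF7 (0.816) and OASL. The IFIT1 sum covers the IFIT1 position (mean 18.1 FPKM) and the IFIT3 position (5.44). Its lowest value, 13.3, lay above the highest IFIT2 value, 10.8. At the IFIT1 position alone the lowest value was 10.04, within the range of IFIT2 over pigs, but within each pig this position exceeded IFIT2. Each further pair of neighbours from IFIT2 to IRF7 overlapped in their ranges over pigs. Within each pig, ISG15 lay above MX1 and RSAD2 above IRF7, whereas the order of the other neighbouring pairs changed between pigs. IFIT1 exceeded 89.0% of tested genes in mean FPKM, ISG15 63.0%, MX1 33.9% and IRF7 19.4%.

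The transcripts behind a sum also varied between pigs. For RSAD2, the transcript RSAD2-203 was present only in LW63 (0.740 FPKM, 45.3% of the gene) and LW70 (1.16 FPKM, 59.4%), whereas RSAD2-202 was listed at 0 in both and made up between 65.7% and 100% of the gene in the other 4 pigs. Both reach to base 128897809 of chromosome 3, and RSAD2-203 extends from 128877186 and RSAD2-202 from 128880916, so the shorter locus lies within the longer. With RSAD2-202 alone, the log2 fold change was -2.68 (unadjusted p 0.0489). LW119 shared the pattern of the S-L pigs, so the split did not follow the groups. For MX1, MX1-201 held 43.9% of the gene in LW70 and 5.11% in LW82 and was listed at 0 elsewhere. IRF7-201 held 89.1% of IRF7 in LW90 and between 38.8% and 57.6% in the other pigs.

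**Figure D4:**
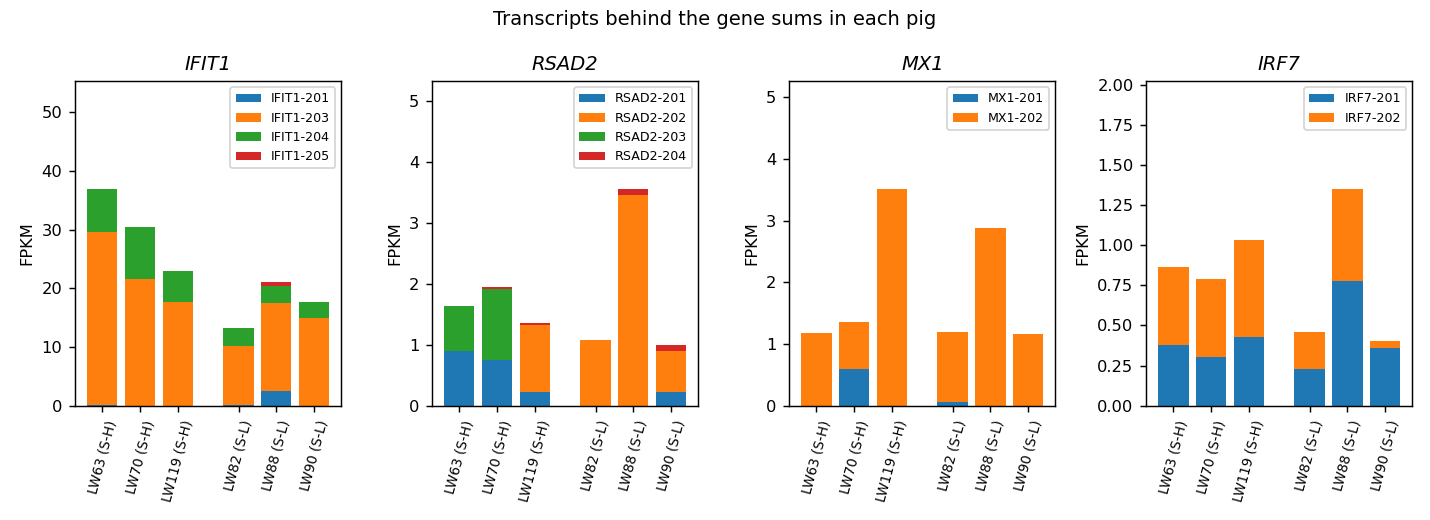
Stacked bars of transcript FPKM (vertical axes, from 0) in each pig for IFIT1, RSAD2, MX1 and IRF7, with 1 colour per transcript. RSAD2-203 appears in LW63 and LW70 only, and IFIT1-201 reaches 2.44 FPKM in LW88.

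The pig LW88 stood apart within S-L for these genes. It had the highest of the 3 S-L values in 7 of 7 genes, and in 5 of 7 with size factors. Over all tested genes it was the highest S-L pig in 40.4%, and in 35.3% with size factors. The library of LW88 also had the fewest transcripts above 0, 44552 against 45849 to 48568 in the others, and the part of this in its values was not tested. The lowest value of the 6 pigs was in LW90 for 4 genes and in LW82 for the other 3. LW90 held the lowest value in 40.9% of all tested genes and LW82 in 10.9%. These lowest places depended on scaling, and LW90 had the smallest size factor, 0.807. With size factors LW90 was the lowest pig for IRF1 only and LW63 for MX1. LW82 was then the lowest for ISG15, IFIT1, IFIT2, RSAD2 and IRF7. The lowest pig over all tested genes was not counted with size factors.

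Other genes of the interferon pathway were taken from lists by role, 112 symbols in all, which include second symbols for RIGI, CGAS and STING1. Of these, 91 were in the table, 81 were tested and 0 passed. RIGI, at a mean of 0.209 FPKM, was not tested because no RefSeq gene type was matched to it. The unadjusted p was below 0.05 for 14 of 81, 13 of them with higher values in S-H (17.3%, against 8.17% of all tested genes). With size factors this was 6 of 81 (7.41%), against 6.69% of all genes, and with quantile normalization 5 of 81. The median log2 fold change was 0.30 against 0.21 for all genes, and 0.10 with size factors. The groups did not overlap, with S-H higher, for 16 of 81 (19.8%), against 13.1% of all tested genes, and with size factors for 9 (11.11%) against 5.94%.

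Ligands were near or at 0. Of 9 listed interferon genes 5 were in the table, and IFNB1 and IFNE were listed at 0 in each pig and IFNA1 was at 0.0214 FPKM or less. IFNK alone was tested, at 0.196, 0.0381 and 0.114 FPKM in S-H and 0.412 and 0.309 in LW82 and LW88, with LW90 listed at 0. IFNG, the gene of interferon gamma, was at 0.153 and 0.0467 FPKM in LW63 and LW70 and 0.183 in LW82, and was listed at 0 in LW119, LW88 and LW90.

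All 6 listed receptor genes were in the table and 5 were tested. IFNGR2 was at 18.0, 15.05 and 31.5 FPKM in S-H and 9.89, 19.2 and 14.9 in S-L. IFNGR1, the ligand-binding chain for interferon gamma, was at 10.0004, 8.44 and 6.99 in S-H and 6.23, 6.64 and 5.32 in S-L, without overlap (log2 fold change 0.47, unadjusted p 0.0885). IFNAR2, a chain of the type I receptor named for its unadjusted p below 0.05 after values were seen, was at 3.14, 3.12 and 3.66 in S-H and 1.97, 2.71 and 1.47 in S-L. Its groups did not overlap, and its log2 fold change was 0.70 (unadjusted p 0.0384, limma adjusted p 0.604). IFNAR1, the other chain, had a log2 fold change of 0.26 with overlapping groups. Of the 5 tested receptor genes 2 had S-H higher without overlap, against 13.1% of all tested genes. With size factors this held for 0 of 5, against 5.94%.

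Over 11 tested signalling genes the log2 fold change had a median of 0.06, against 0.21 for all genes, with 0 of 11 at an unadjusted p below 0.05. The kinases JAK1 and JAK2 had log2 fold changes of 0.06 and 0.05. Among 5 other tested interferon regulatory factors 0 had an unadjusted p below 0.05, and IRF8 was the highest, at 29.0, 45.3 and 29.5 FPKM in S-H and 35.1, 30.7 and 33.3 in S-L.

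Nucleic acid sensors and adaptors included 4 of 15 genes with an unadjusted p below 0.05, against 8.17% of all tested genes. With size factors it was 1 of 15, against 6.69%. The groups did not overlap, with S-H higher, for 5 of 15 (33.3%), against 13.1% of all tested genes. With size factors this held for 4 of 15 (26.7%), against 5.94%, and 1 of 15 was lower in S-H without overlap. The 4 genes with an unadjusted p below 0.05 are named after their values were seen. TLR8, IKBKE and TLR3 had log2 fold changes of 1.07, 1.01 and 0.79, and TLR9 had -1.09, with limma adjusted p values of 0.587 or more. Without LW119 the value of TLR9 was -1.48, past the thresholds. The 3 with the highest mean FPKM were MAVS, TBK1 and STING1, with log2 fold changes of 0.21, 0.00 and 0.50. TBK1, the kinase that activates IRF3, had its highest value in LW88 at 10.04 FPKM and its lowest in LW90 at 4.20.

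Among other interferon-stimulated genes, 60 were listed, 47 were in the table and 44 were tested. The log2 fold change was positive for 40 of 44, against 9517 of 12837 tested genes, and 0 passed. Its median was 0.39, against 0.21 for all genes, and its range was from -0.55 to 0.96. With size factors it was positive for 34 of 44, against 6497 of 12823 tested genes. With quantile normalization it was positive for 30 of 44, against 6303 of 12837. The unadjusted p was below 0.05 for 9 of 44, each with higher values in S-H, against 8.17% of all tested genes. With size factors it was below 0.05 for 5 of 44, against 6.69%. Also 9 of 44 (20.5%) had groups without overlap, against 13.1% of all tested genes. With size factors 5 of 44 (11.4%) had no overlap, against 5.94%.

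The 3 of these with the highest mean were IFI6, IFITM3 and HERC6. IFI6, a membrane protein that limits viral replication sites, was at 23.9, 25.8 and 47.9 FPKM in S-H and 8.46, 114.3 and 12.6 in S-L. IFITM3, which blocks fusion of viral membranes, was at 37.6, 30.2 and 59.4 in S-H and 18.2, 62.1 and 13.9 in S-L. HERC6, a ligase of the family that attaches ISG15, was at 15.97, 19.5 and 12.05 in S-H and 9.45, 10.2 and 5.49 in S-L. The values of IFI6, and those of GBP1 given further on, rest on rows read as TPM and converted to FPKM. IFI6 and IFITM3 showed the pattern of ISG15, with LW88 highest and the other S-L pigs lowest, whereas HERC6 did not overlap between the groups (log2 fold change 0.93, SE 0.31, unadjusted p 0.0124, limma adjusted p 0.577). Without LW88 the log2 fold change was 1.58 for IFI6 and 1.35 for IFITM3, both past the thresholds, against 0.42 and 0.70 with it. HERC6 passed without LW88 (1.098), without LW119 (1.11) and with TPM (1.07).

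GBP1 and CXCL10 were named after their values were seen. GBP1, a guanylate-binding protein induced by interferon gamma, was at 7.68, 6.72 and 8.09 FPKM in S-H and 3.37, 4.50 and 3.69 in S-L, without overlap. Its log2 fold change was 0.95 (SE 0.24), with an unadjusted p of 0.00308 and a limma adjusted p of 0.533. CXCL10, a chemokine, was at 3.50, 2.26 and 2.10 in S-H and 0.961, 1.73 and 1.21 in S-L, without overlap, with a log2 fold change of 0.96 (unadjusted p 0.0153). GBP1 passed without LW70 (1.02), without LW88 (1.06) and with TPM (1.08), and CXCL10 passed with TPM (1.097).

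LW88 held the highest value of the 6 pigs for 16 of these 44 genes (36.4%), against 11.5% of all tested genes. With size factors it held 17 of 44 (38.6%), against 16.7%. LW119 held 18 (40.9%), against 30.7% of all genes, and with size factors 11 (25.0%), against 18.7%. LW90 held the lowest value for 29 (65.9%), against 40.9% of all tested genes. This lowest count was not made with size factors, of which that of LW90 was the smallest (0.807).

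**Figure D5:**
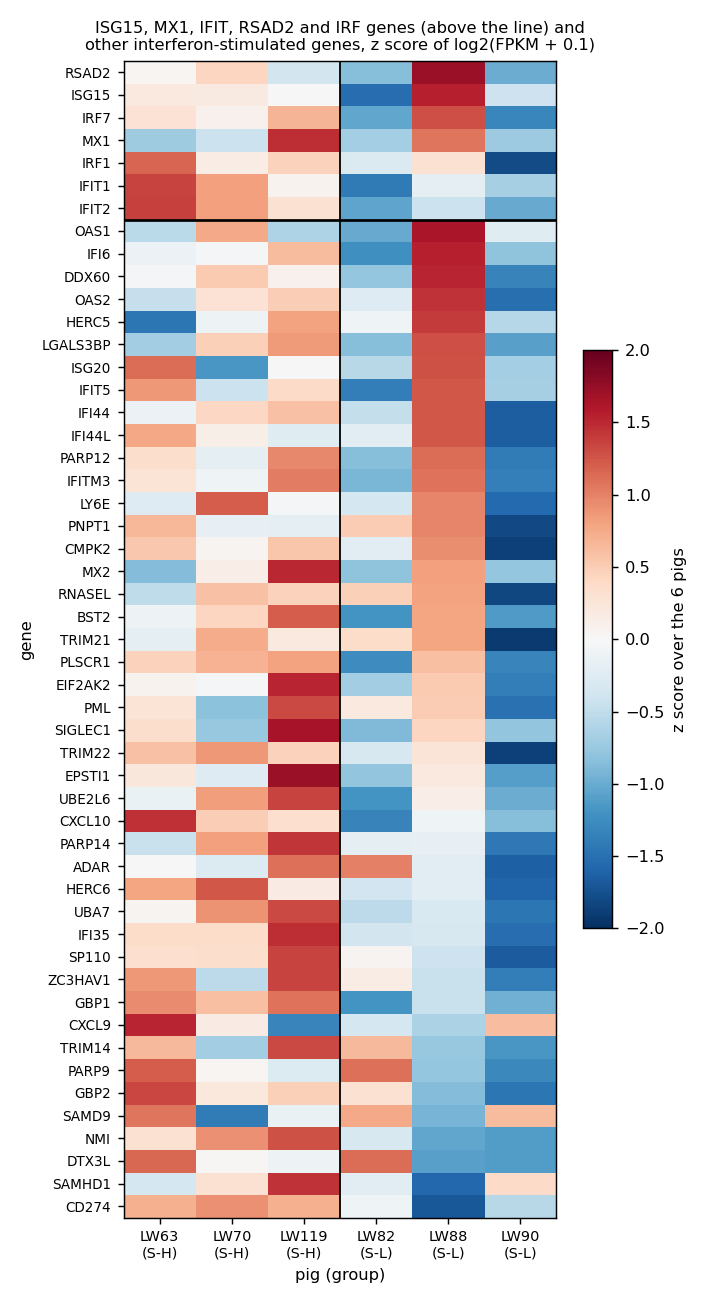
Each gene's z score of log2(FPKM + 0.1) over the 6 pigs (colour, from -2 to 2), with pigs on the horizontal axis and genes on the vertical axis, the 7 listed genes above the line and the 44 other tested interferon-stimulated genes below it, each block sorted by the value in LW88. Without size factors, as drawn here, LW88 is the highest pig for 3 of the 7 and 16 of the 44 genes, and LW90 is mostly blue.

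Of the adipocyte markers 5 of 6 passed, against 1.36% of all tested genes, whereas 1 of 18 tested leukocyte markers and 1 of 7 endothelial markers did. In bulk muscle, fewer cells of a type and less RNA per cell cannot be told apart. The summed FPKM of 6 adipocyte markers ranged from 447.7 to 1163.5 in S-H and from 280.1 to 377.3 in S-L. The 5 that passed had higher values in S-H. The remaining marker, LPL, had a log2 fold change of 0.02 and its highest value in the S-L pig LW90. ADIPOQ was at 365.9, 117.4 and 96.3 in LW63, LW70 and LW119 and at 67.2, 49.4 and 23.9 in LW82, LW88 and LW90. The S-H pigs stood in the same order for ADIPOQ as for IFIT1 and IFIT2. In S-L the order differed, since LW82 was the highest for ADIPOQ and the lowest for both IFIT genes.

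Of 20 listed leukocyte markers 18 were tested and 1, S100A12, passed with higher values in S-H. Their summed FPKM ranged from 166.8 to 264.1 in S-H and from 131.3 to 167.8 in S-L, and most of it was CD79A. Without CD79A the sums were 80.8, 40.6 and 119.1 in LW63, LW70 and LW119 and 53.3, 67.4 and 41.9 in LW82, LW88 and LW90. LW119 and LW88 had the highest of these sums in their groups. LW88 was also the highest S-L pig for each of the 7 tested interferon-stimulated genes. LW119 was the highest S-H pig for MX1 and IRF7 only, and the lowest for ISG15, RSAD2, IFIT1 and IFIT2. MS4A1, a defining B cell marker, was below the minimum of 0.1 FPKM. Of 7 endothelial markers 1, CLDN5, passed with higher values in S-H. The part of adipocytes, leukocytes and endothelial cells in the levels of the interferon-stimulated genes was not tested.

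The mean z score of the 7 tested genes was 0.53, 0.29 and 0.38 in LW63, LW70 and LW119 and -0.98, 0.76 and -0.99 in LW82, LW88 and LW90. Over these 6 points, which share their libraries, genes with the most similar pattern among 9964 with a mean of at least 1 FPKM were ZNF140 (Pearson r 0.991), POLR2D (0.989), the gene ENSSSCG00000033734 without a symbol (0.988), ATG3 (0.984), BLOC1S6 (0.984), TFPT (0.983), C1QTNF2 (0.982), TBL3 (0.979) and SGSM3 (0.979). None of these 9 belonged to the pathway lists. Of 61 pathway genes among the candidates 1, PLSCR1, was within the 100 most similar genes.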

How the data were processed

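LD muscle RNA of 3 S-H and 3 S-L pigs was sequenced, with 1 library per pig, and pigs were the replicates. The authors aligned the reads with HISAT2 to Sscrofa11.1 and quantified transcripts with StringTie, as their methods describe. The deposited values are FPKM per transcript computed by the authors, except that 21104 of 83119 transcripts, those without a symbol, appear to be in TPM, which was judged from the column sums and is not stated in the sources used here. These deposited values were read as TPM and converted to FPKM by 1 factor per pig (from 0.639 to 0.847), taken from the sums of both kinds of row in the file. The 8 genes found by name held no such row, while IFI6 and GBP1 did. Read counts per gene were not used here, so the number of reads behind a value is unknown. Columns of values were assigned to pigs by their names.

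FPKM was summed over the transcripts of a gene. Gene types came from the RefSeq annotation of Sscrofa11.1, by symbol for 14827 genes and by reciprocal overlap of at least 50% for 3877, which gave 17216 protein-coding genes. Those with a mean of at least 0.1 FPKM were fitted as log2(FPKM + 0.1) in R 4.3.3, where limma 3.58.1 was given a variance trend and no covariates, and p values were adjusted by the Benjamini-Hochberg method over all 12837. The fit was tested on simulated data. An exact permutation test, two-sided, was also made on FPKM for the listed genes, the IFIT1 and IFIT3 positions, and pathway and marker lists. Sums and counts were made in Python 3.11.15 (pandas 2.3.3, numpy 2.4.6, scipy 1.17.1).

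The genes and lists, and the split of the IFIT1 identifier, were chosen with earlier results of these data known. Named were all listed genes, from each pathway list those past the thresholds or otherwise the 3 with the highest mean FPKM, and the 10 genes most like the mean pattern. Of the genes this rule named, 2 are not reported here. Alternatives covered the pseudocount, the minimum, TPM, size factors, quantile normalization, the limma settings, the transcripts and genes included, and leaving out each pig.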

Additional observations from a re-analysis of the deposited data

How the results depend on the processing

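The number of interferon-stimulated genes past the thresholds was 0 under all 20 alternatives. For the pathway lists it was 3 of 82 with TPM (HERC6, GBP1 and CXCL10) and between 0 and 4 when 1 pig was left out. It was 1 without LW70 (GBP1), 2 without LW119 (TLR9 and HERC6) and 4 without LW88 (HERC6, GBP1, IFI6 and IFITM3). Under the other alternatives it was 0. How many of all tested genes passed under these settings was not counted. With TPM the median over all genes rose from 0.21 to 0.35. The limma unadjusted p was then below 0.05 for 15 of 82 pathway genes (18.3%), against 11.6% of all tested genes. The cause of these differences in count was not tested. Of 161 alternative fold changes, 15 changed sign. For MX1 the log2 fold change was -0.055 with size factors, -0.078 with quantile normalization, -0.076 with the highest transcript, and from -0.31 to 0.56 with 1 pig left out. For RSAD2 it was -0.015 with a pseudocount of 1, -0.16 with size factors, -0.21 with quantile normalization, -2.68 with the highest transcript, and from -0.26 to 0.61 with 1 pig left out. For IRF7 it was -0.12 with the highest transcript, and for ISG15 from -0.39 to 0.96 with 1 pig left out. IFIT1, IFIT2 and IRF1 were higher in S-H under each alternative, with lowest adjusted p values of 0.406, 0.412 and 0.431. The IFIT3 position passed under 4 alternatives, with TPM (1.09), with the highest transcript (1.25), without LW119 (1.15) and without LW88 (1.23). The median over all genes was 0.35 with TPM and -0.01 with quantile normalization, where the 7 genes had medians of 0.55 and 0.12. No paired analysis was possible because the labels give the pigs names and no shared numbers, so no pig of one group belongs with a pig of the other. Groups of 3 pigs were too small for a test of outlying samples, and the depth behind FPKM near 0, as for OASL and the ligands, is unknown.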

Other observations

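The lead of LW88 over the next highest pig was looked at after the data had been seen. Among 9970 genes with a mean of at least 1 FPKM, ranked by this lead in log2(FPKM + 0.1), IFI6 was 7th with a lead of 1.25, ISG15 was 9th with 1.20, RSAD2 was 37th with 0.83, OAS2 was 72nd with 0.65 and HERC5 was 179th with 0.43. IFIT1, IFIT2 and IRF1 had no such lead, since each was highest in LW63.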
